A study of Mus musculus with 8 samples.

Results

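*Afp* and *Afm* lie downstream of *Alb* on mouse chromosome 5, in the same orientation, and all 3 genes encode plasma proteins of the albumin family. Contacts of the *Alb* promoter with this neighbourhood were taken from 4C-seq profiles of liver from male and female CD1 mice (Crl:CD1(ICR)), an outbred stock, at 8 weeks of age. The stretch examined runs from the first base after *Alb* to the last base of *Afm*, chr5:90905630-90982569 (mm9), and a contact was counted when its listed start fell inside it. This gave 9 of the 72 restriction fragments that were listed as contacts in either sex: 6 of 57 in male liver and 6 of 67 in female liver, with 3 shared. Over all 473 restriction fragments on both sides of the viewpoint out to the distance of the *Afm* end, 12.1% were listed in male liver, 14.2% were listed in female liver, and 52 fragments were listed in both. Each sex is represented by 4 livers, and no animal carried an engineered allele or received a treatment according to the labels. Per sex, 3 livers were fixed as cell suspensions in 1% formaldehyde (10 min in 1 liver and 20 min in 2 by the labels), and nuclei of the remaining liver were fixed in 0.8% formaldehyde for 9 min. Whole liver was used, so a contact is an average over hepatocytes and the other cells of the organ, and no expression values exist here to check the cell types.

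The values of the 4 livers of a sex had been merged by the authors into a single profile, and only fragments that were contacts in all 4 were kept. A fragment that is not listed in a sex was therefore not a contact in every liver of that sex, which is not the same as a signal of 0. Since each fragment has 1 value per sex, there is no spread between livers to set a difference against, and no p-value is given for any comparison below. The unit is RPM, the reads of a fragment scaled to the library size, where a fragment is what the restriction enzyme DpnII leaves, which cuts at GATC. Beside it stands the −log10 of the interaction p-value that the r3Cseq package gave to a contact, so that a larger value is a lower p. The paper's legends also name the scale as the negative log times 10, and on that reading no contact of the stretch would reach the p of 1e-05 used below.

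The albumin family arose by gene duplication, and its members stayed together as a cluster in mammals. *Alb* encodes serum albumin, the main carrier protein of plasma. *Afp* encodes alpha-fetoprotein, which is abundant in the fetal liver and the yolk sac and is silenced in the liver after birth. Classical transgenic work placed enhancers of *Afp* in the intergenic DNA between *Alb* and *Afp*, about 2.5, 5 and 6.5 kb upstream of the *Afp* start site. *Afm* encodes afamin, a vitamin E-binding glycoprotein that adult liver secretes. The question put to the data here is how far the contacts of the active *Alb* promoter reach into these neighbours.

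In the 4C libraries each read started in the *Alb* promoter and ran across a DpnII site into the ligated fragment. The part of the reading primer that matches the genome lies at chr5:90889854-90889873 on the forward strand, with the DpnII site in capitals:
Reading primer: ggtaagtatggttaatGATC

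The 3 shortest contacts of the stretch are shown whole, on the forward strand of mm9, because each was listed in a single sex and together they hold the lowest p-values of the stretch. Capitals mark the DpnII sites at both ends and the site of Csp6I (GTAC), the second enzyme of the protocol. The first pair, chr5:90917652-90917720 and chr5:90917717-90917986 with the sites included, are direct neighbours upstream of *Afp* that were listed in female liver. The third, chr5:90936290-90936409, lies in an intron of *Afp* and was listed in male liver.
Female contact of 63 bp: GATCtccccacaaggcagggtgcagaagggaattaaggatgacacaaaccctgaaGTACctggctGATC
Female contact of 264 bp: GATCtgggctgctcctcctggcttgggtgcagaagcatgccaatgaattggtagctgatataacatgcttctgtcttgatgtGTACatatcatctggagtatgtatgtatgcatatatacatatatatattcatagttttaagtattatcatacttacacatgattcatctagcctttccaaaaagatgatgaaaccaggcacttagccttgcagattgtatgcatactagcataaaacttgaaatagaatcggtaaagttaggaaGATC
Male contact of 114 bp: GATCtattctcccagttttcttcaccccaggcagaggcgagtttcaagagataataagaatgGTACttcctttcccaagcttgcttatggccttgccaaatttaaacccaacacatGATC

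A further 2 sequences come from contacts listed in both sexes. The first is the start of the intergenic fragment that holds the point 5 kb upstream of *Afp* (chr5:90914464-90914723), with DpnII, Csp6I and TTGCNNAA, the letters of a C/EBP site, in capitals. The printed part ends just before that point. Its label refers to the textbook position alone, and enhancer activity was not measured here. The second is the coding exon 13 of *Afp*, in capitals, with 20 bases of intron on either side (chr5:90936804-90936976).
Enhancer fragment: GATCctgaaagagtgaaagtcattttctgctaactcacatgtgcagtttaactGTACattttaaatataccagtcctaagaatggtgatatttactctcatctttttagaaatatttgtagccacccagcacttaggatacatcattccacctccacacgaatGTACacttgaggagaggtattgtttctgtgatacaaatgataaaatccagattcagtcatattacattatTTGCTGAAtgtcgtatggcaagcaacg
Afp exon: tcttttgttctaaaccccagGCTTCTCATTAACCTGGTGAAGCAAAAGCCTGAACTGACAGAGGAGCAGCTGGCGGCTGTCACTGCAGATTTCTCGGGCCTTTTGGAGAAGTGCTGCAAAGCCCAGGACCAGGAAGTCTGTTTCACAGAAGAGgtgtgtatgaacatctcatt

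The listed contacts became fewer along the stretch, and none was listed in *Afm*. The intergenic DNA between *Alb* and *Afp* (chr5:90905630-90919739) lies 15.9 to 30.0 kb from the middle of the viewpoint. Of its 31 fragments, 3 were contacts in male (9.68%) and 4 in female liver (12.9%). *Afp* itself held 2 among 50 fragments in each sex (4.00%). The DNA between *Afp* and *Afm* held 1 in male (3.57%) and 0 in female liver among 28 fragments. *Afm* held 0 among 94 in both sexes. Over all 473 fragments the shares were 12.1% in male and 14.2% in female liver. Upstream of the viewpoint, at the distances of *Afm*, they were only 2.30% and 1.15%. Each of the 9 fragments is described below from the *Alb* side outward.

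Nearest to *Alb*, the intergenic fragment chr5:90906034-90906789 (756 bp, 16.7 kb from the viewpoint) was listed in both sexes, with 384 RPM in male and 353 RPM in female liver. Its −log10 of p was 4.36 in male and 2.31 in female liver. The last contact before it, chr5:90901143-90901566 in exons 11 and 12 of *Alb* and the introns beside them, had 594 RPM in male and 1107 RPM in female liver. The contact beyond the *Alb* 3′ end was thus the lower of these neighbours in both profiles, although contacts within *Alb* went down to 369 RPM in female liver, below the highest of the stretch.

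The next fragment, chr5:90912044-90912429 (386 bp, 22.5 kb), was listed in male liver alone, with 358 RPM and a −log10 of p of 4.58. It ends 7.31 kb upstream of the *Afp* start site. The point 6.5 kb upstream, where the most distal enhancer is placed, fell on a fragment of 60 bp (chr5:90913212-90913271) without a Csp6I site, and this fragment was not listed in either sex.

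The fragment with the point 5 kb upstream, chr5:90914467-90915943 (1477 bp, 25.5 kb), was listed in both sexes. It had 367 RPM in male and 304 RPM in female liver, and a −log10 of p of 2.91 and 2.96. It covers the DNA from 5.27 to 3.80 kb upstream of the *Afp* start site and is the longest contact of the stretch, with 6 Csp6I sites. It was the sole one of the 3 fragments with a textbook enhancer point that was listed.

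Closer to *Afp*, chr5:90917655-90917717 (63 bp, 28.0 kb) and chr5:90917720-90917983 (264 bp, 28.1 kb) share a DpnII site and were listed in female liver alone. They had 494 RPM and 536 RPM, the highest levels of the stretch in either sex, with a −log10 of p of 6.74 and 8.73. The pair covers the DNA from 2.08 to 1.76 kb upstream of the *Afp* start site. The point 2.5 kb upstream lies 0.415 kb from the nearer edge of that pair, and the fragment that holds it, chr5:90916513-90917628 with 3 Csp6I sites, was not listed in either sex. Whether the levels of the neighbours are independent of each other was not tested.

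The *Afp* start site lies on the fragment chr5:90918759-90919815 (1057 bp), which was not listed in male or in female liver. It has unique sequence at an end but no Csp6I site. All 9 contacts of the stretch had such a site, whereas over the whole profiles 9 of 57 male and 10 of 67 female contacts had none, and the part of the missing site in this result was not tested. The nearest contact to the start site was 3.80 kb away in male liver and 1.76 kb away in female liver. The promoter, from 250 bases upstream to the base before the start site (chr5:90919490-90919739), is shown because it is the target that a contact between the promoters of both genes would have to reach, with TTGCNNAA in capitals:
Afp promoter: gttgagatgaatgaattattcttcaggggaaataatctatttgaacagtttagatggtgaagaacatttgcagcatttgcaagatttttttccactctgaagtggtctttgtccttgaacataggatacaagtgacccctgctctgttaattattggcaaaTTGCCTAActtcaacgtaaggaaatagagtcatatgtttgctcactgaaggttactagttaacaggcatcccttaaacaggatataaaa

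Within *Afp* (ENSMUSG00000054932.3, forward strand, chr5:90919740-90937933), the contacts lay beyond the midpoint of the gene. In female liver the fragment chr5:90929570-90929984 (415 bp, 40.1 kb) in intron 7 was listed with 335 RPM and a −log10 of p of 1.87, the weakest p-value of the stretch. It was not listed in male liver. In male liver the fragment chr5:90936293-90936406 (114 bp, 46.6 kb) in intron 12 had 411 RPM and a −log10 of p of 7.68, and it was not listed in female liver.

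The contact with exon 13, chr5:90936416-90937298 (883 bp, 47.1 kb), was listed in both sexes. It had 397 RPM in male and 354 RPM in female liver, with a −log10 of p of 4.97 and 2.39. It is the outermost contact of female liver on this side. In male liver it follows the intron 12 contact, from which a single unlisted fragment separates it. Both profiles thus have a contact near the end of *Afp*. In male liver 53 fragments in a row without a contact lay between the fragment 5 kb upstream of *Afp* and the intron 12 contact. The female contacts at 28.0, 28.1 and 40.1 kb fall within this run, and the longest female run there was 32 fragments. Of the 50 fragments of *Afp*, 18 had both a Csp6I site and unique sequence at an end, and the part of this was not tested.

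Between *Afp* and *Afm* the male profile had its outermost downstream contact, chr5:90944239-90944811 (573 bp, 54.8 kb), at 233 RPM. This was the lowest RPM of all 57 male contacts, and no p-value was listed for it. The fragment ends 3.15 kb upstream of the annotated *Afm* start site. Female liver had 0 contacts among the 28 fragments of this segment.

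*Afm* (ENSMUSG00000029369.10, forward strand, chr5:90947958-90982569) had no contact in either sex. Its start site lies on the fragment chr5:90947080-90948854, which begins before the gene, holds 2 Csp6I sites and unique sequence, and was not listed. After the last contact, 102 fragments (37.8 kb) followed without a contact up to the end of *Afm* in male liver and 124 (45.3 kb) in female liver. The share of fragments with both a Csp6I site and unique sequence at an end was lower in *Afm* than in the other segments, although their number was the highest there: 53 of its 94 fragments had unique sequence at an end, and 26 (27.7%) also had a Csp6I site. In the *Alb*-*Afp* stretch 21 of 31 fragments (67.7%) met both conditions, in *Afp* 18 of 50 (36.0%), and in the *Afp*-*Afm* stretch 12 of 28 (42.9%). How far this limits the contacts listed in *Afm* was not tested.

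Of the 203 DpnII fragments of the stretch, 2.96% were listed in each sex (95% Wilson interval 1.36 to 6.30% in each, which covers counting error only and treats neighbouring fragments as independent). This lies below the shares of 12.1% and 14.2% over all 473 fragments. To hold the distance from the viewpoint equal, the stretch was also set beside the upstream fragments at the same distances. There 27 of 200 fragments were listed in male liver (13.5%, interval 9.45 to 18.9%) and 34 of 200 in female liver (17.0%, interval 12.4 to 22.8%). The paper places most contacts of this promoter within a super-enhancer, a cluster of highly active enhancers, upstream of *Alb*. The upstream fragments, which are also part of the 473, therefore match the stretch in distance but are not a neutral expectation for it. The paper also reports that nearly all contacts of this promoter lie within a chromatin loop it predicted around *Alb*. Where the stretch lies relative to that loop was not examined.

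The gap between the sides lay in the nearer segments. At the distances of the *Alb*-*Afp* stretch, 9.68% of downstream against 29.0% of upstream fragments were listed in male liver, and 12.9% against 32.3% in female liver, with intervals that overlap. At the distances of *Afp*, the values were 4.00% against 29.6% in male liver and 4.00% against 40.7% in female liver. At these distances the intervals of the sides did not overlap. The intervals treat fragments as independent and hold no spread between livers. Whether they overlap is therefore no test of the gap between the sides. At the distances of the *Afp*-*Afm* stretch and of *Afm* the upstream side also had few contacts, with 2 male and 2 female in all. At those of *Afm* alone, 2.30% of upstream fragments were listed in male and 1.15% in female liver. The 0 of 94 fragments in *Afm* has an interval that reaches 3.93% in each sex. Within the *Alb* gene, nearer than the stretch, 26.5% of fragments were listed in male and 32.4% in female liver.

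Counting only fragments with a Csp6I site and unique sequence at an end left the order of the sides as it was, at 7.79% downstream in each sex against 29.1% upstream in male and 36.0% in female liver. All 9 contacts met both conditions, although 44.3% of the fragments of the stretch have a Csp6I site. The contacts were between 63 and 1477 bp long (median 415 bp, against 260 bp over the fragments of the stretch), and over chromosome 5 the share of fragments with a Csp6I site rises from 10.2% at the length of the shortest of them to 94.0% at that of the longest. Their GC content had a median of 42.8%, against 42.3% over the stretch, and 1 of the 9, the fragment 5 kb upstream of *Afp*, had unique sequence at a single end.

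The contacts of the stretch were weak in both measures. Their median was 375 RPM in male liver, from 233 to 411, against a median of 735 RPM for the other 51 male contacts. In female liver the median was 354 RPM, from 304 to 536, against 759 RPM for the other 61. All 6 male contacts of the stretch were among the 10 lowest by RPM in their profile, and 4 of the 6 female contacts were, all but the pair upstream of *Afp*. The stretch held 4.79% of the summed RPM in male and 3.86% in female liver, from 10.5% and 8.96% of the contacts.

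Upstream contacts at the same distances had a median of 638 RPM in male and 696 RPM in female liver. At the distances of *Afp* the lowest of the 16 upstream male contacts had 433 RPM, above both male contacts in *Afp*. In female liver the upstream contacts there ran from 275 to 1639 RPM, a range that includes the contacts in *Afp*. The median −log10 of p was 4.58 in the stretch against 44.9 elsewhere in male liver, and 2.67 against 19.3 in female liver. A p of 1e-05 or less was reached by 1 male and 2 female contacts of the stretch, 0.493% and 0.985% of its fragments, against 10.4% and 11.8% of all 473. In male liver it was the contact in *Afp* intron 12, and in female liver the pair upstream of *Afp*.

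The 3 contacts listed in both sexes had a higher RPM in male liver, with a log2 ratio of male to female RPM (pseudocount 1) of 0.12 at 16.7 kb, 0.27 at 25.5 kb and 0.16 at 47.1 kb. Over the 49 shared contacts elsewhere the median log2 ratio was −0.28, from −1.06 to 0.37, and 12 had the higher RPM in male liver. When the profiles were scaled to the same summed RPM over shared contacts, which adds 0.33 to each ratio, the 3 ratios kept their sign and 26 of the 49 others were higher in male liver. All 3 lie inside the range elsewhere, and whether any differs from 0 could not be tested with 1 merged value per sex.

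None of the 3 shared contacts reached a p of 1e-05 in either sex, and the 3 contacts that did so were each listed in 1 sex. This split depends on the cutoff, since the shared exon 13 contact had a −log10 of p of 4.97 in male liver. Of the 9 fragments 33.3% were listed in both sexes, against 77.8% of the 63 fragments elsewhere, the latter being 49 fragments. The lowest listed RPM was 233 in male and 275 in female liver. Each sex had 2 livers with 2 pooled PCR reactions and 2 livers with 8, and the same set of crosslinking conditions.

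**Figure D1:**
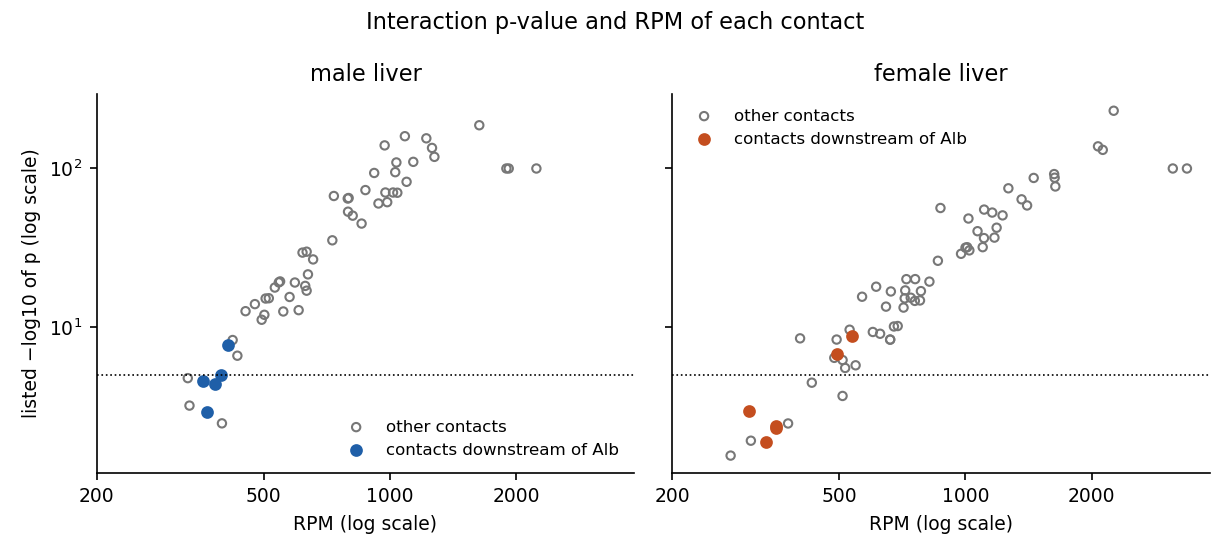
Listed −log10 of p against RPM for each contact with a p-value, in male (left) and female liver (right), with log scales on both axes. Filled points are contacts between the end of *Alb* and the end of *Afm*, open circles are all others, and the dotted line marks p of 1e-05. In each sex the filled points sit at the lower left end, with 1 male and 2 female points above the line.

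Exact letters of binding sites for liver factors and for CTCF, the factor that anchors chromatin loops, were searched on both strands of the 9 contacts. TGTTTAC (FoxA), the palindromic Hnf1 motif and a core of the CTCF motif had a match in 0 of the 9. Among all fragments of chromosome 5 within 10% of the length of each contact, between 1.22% and 21.1% hold TGTTTAC. At most 0.0175% hold the Hnf1 motif and between 0.0620% and 0.852% hold the CTCF core. Letters this rare are seldom met in any 9 fragments, so the 0 for Hnf1 and CTCF does not show that such sites are absent. TTGCNNAA (C/EBP) had 3 matches in the fragment 5 kb upstream of *Afp*, where 49.6% of fragments of this length hold it, and 1 in the male contact of *Afp* intron 12, where 4.27% do. The 1 match in the *Afp* promoter shown above compares with 9.56% of 32851 promoters of the RefSeq table (GRCm38.p6) that hold these letters in the 250 bases before the start site.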

How the data were processed

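4C-seq of the *Alb* promoter was done by the authors in 4 male and 4 female mouse livers. After selection on the bait primer and removal of 20 nt, reads had been mapped by the authors to mm9 (named in the submitters' processing notes) with bwa-mem at up to 2 mismatches. Depth per DpnII fragment came from r3Cseq, and each sex was merged by intersection; versions are not given in the sources used here. The deposited values are the RPM and the −log10 of the p-value of each contact. Legends name this scale −log10 or the negative log times 10; it was read as −log10, on which every printed p depends. The paper gives the sequencing depth per sample as an approximate range. No multiple of a read fitted more than 17.5% of male and 17.9% of female RPM values within 0.02 of a step. The number of reads behind a merged value could therefore not be recovered.

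Chromosome 5 of the reference (NCBIM37, the same build) was cut at GATC, and all 72 listed contacts equalled a fragment. Genes came from GENCODE M1. An end was unique when a stretch of 32 nt beside it occurred once in the genome. A mirrored fragment was upstream at the same distance. The named contacts are all those whose start lies in the stretch. The members and lists were chosen with earlier results of these data known. Digest, counts and motif search were tested on simulated data. Alternatives covered membership, p, RPM, fragment filters, scaling and the pseudocount. Python 3.11.15, NumPy 2.4.6, SciPy 1.17.1, pandas 2.3.3, numba 0.67.0 and matplotlib 3.10.9 were used.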

Additional observations from a re-analysis of the deposited data

How the results depend on the processing

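Of the alternatives to the main counts, shares and medians, 25 left the value within its interval, range or 1.5-fold limit and 14 moved it. Of those to the counts per segment, 33 stayed within these limits and 7 moved the count. No value turned its sign, but among these values only the log2 ratio can be negative. At a p of at most 1e-05, 1 contact in male and 2 in female liver were left, which was 0.493% and 0.985% of the fragments of the stretch. With a Csp6I site and a unique end required, 7.79% were listed in each sex, against 29.1% upstream in male and 36.0% in female liver. By bases, the shares were 5.50% in the stretch against 20.2% upstream in male liver, and 5.07% against 24.6% in female liver. RPM per kb of fragment gave a median of 478 in male and 637 in female liver, which turned the order of the sexes, and so did the share of summed RPM, at 3.64% in male and 4.20% in female liver. The median log2 ratio of the shared contacts, 0.16, became 0.49 after scaling and 0.87 with −log10 of p in place of RPM. *Afm* had 0 contacts under every alternative to membership, p and RPM, but none of these could have changed that count. Those of p and RPM only remove contacts. Those of membership could add none, because the nearest listed contact ends 3.15 kb before the gene. Leaving out single livers could not be done with merged values. No paired analysis was possible because each sex has 1 merged profile. The number of reads behind a merged value is unknown, so fragments not listed cannot be called free of contact.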
